A study of Mus musculus with 8 samples.

Results

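Fibrillar collagen is built by a chain of enzymes, and 10 genes of that chain were followed here in the border zone of the infarcted mouse heart: the prolyl 4-hydroxylase alpha subunits P4ha1, P4ha2 and P4ha3, the lysyl hydroxylases Plod2 and Plod3, the collagen chaperone gene Serpinh1, and the lysyl oxidases Lox, Loxl1, Loxl2 and Loxl3. The genes were chosen by name, from what their products are known to do, with earlier results of these data known. Each had a single locus of its own in the deposited annotation, found by its exon and intron lengths, and the 10 loci were part of 35299 in all. The study sequenced poly(A)-selected long RNA from hearts of C57BL/6J mice 12 weeks old. The Sham group held 4 mice, sampled 2 weeks after a sham operation, and the MI group held 4 mice, sampled 2 weeks after surgery that gave a myocardial infarct. No other agent or allele is named in the labels, and how the infarct was made is not given in the sources used here.

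A newly made collagen chain is modified inside the endoplasmic reticulum before it folds. Prolyl 4-hydroxylases, each made of an alpha subunit and the shared beta subunit protein disulfide isomerase, hydroxylate prolines, which lets the triple helix stay folded at body temperature, while lysyl hydroxylases act on lysines that later carry crosslinks, and HSP47, the product of Serpinh1, binds the folded helix on its way out. Outside the cell, the copper-dependent lysyl oxidases convert lysines of collagen and elastin into reactive aldehydes that join neighbouring molecules, and in an infarcted heart this crosslinking is known for making the scar strong and stiff.

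Reads in loci numbered 108 to 161 M per library in the Sham group and 165 to 190.2 M in the MI group. Values are normalised reads, that is, reads in a locus divided by 1 size factor per library, and 1 read was worth between 0.663 and 1.58 normalised reads. The titles call the Sham libraries a reanalysis and do not say this of the MI libraries, so that whatever it stands for cannot be told apart from the infarct. The labels conflict in part: the source field of the MI libraries names Sham, the descriptions of MI replicates 1, 2 and 3 speak of a sham infarct, and that of Sham replicate 4 speaks of an infarct. Groups were taken from the titles, which match the treatment field in all 8 libraries. MI replicate 2 stood apart on the first principal component of all tested loci, at 34.8 where the other MI libraries lay between 62.4 and 63.2 and the Sham libraries between -65.2 and -42.6. Of the summed markers of each cell type, those of cardiomyocytes were the highest in every library. They were at 6455 to 7348 in Sham and 3864 to 4921 in MI, in units of 1000 normalised reads, over the 6 of 8 listed genes that had a locus of their own. Tnnt2 and Tnni3, which define the cell type, were not analysed here because each shared an assembled locus with another gene.

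The enzymes did not move as a block. The 4 lysyl oxidases and P4ha3 rose between 4.39-fold and 29.0-fold in the infarcted hearts, while Plod2, Serpinh1, Plod3 and P4ha1 rose by 1.29-fold to 1.66-fold and P4ha2 did not pass the test. In all, 9 of the 10 genes were called higher and 0 lower (limma on log2 of the normalised reads plus 1, adjusted p under 0.05 over 19186 tested loci), where 20.8% of all tested loci were called higher and 20.1% lower. For 8 of the 10 genes the lowest MI heart lay above the highest Sham heart, a separation seen in this direction for 19.7% of tested loci and in the other for 20.0%, and for P4ha1 and P4ha2 the groups overlapped. By the limma log2 difference, 5 of the 10 were called and at least 2-fold higher, against 9.04% of tested loci. The median log2 difference was 1.44 over the 10 genes and -0.02 over all tested loci. All of the 10 passed the filter on low values, a mean of at least 10 normalised reads. In bulk tissue, more cells of a type and more RNA per cell cannot be told apart.

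**Figure D1:**
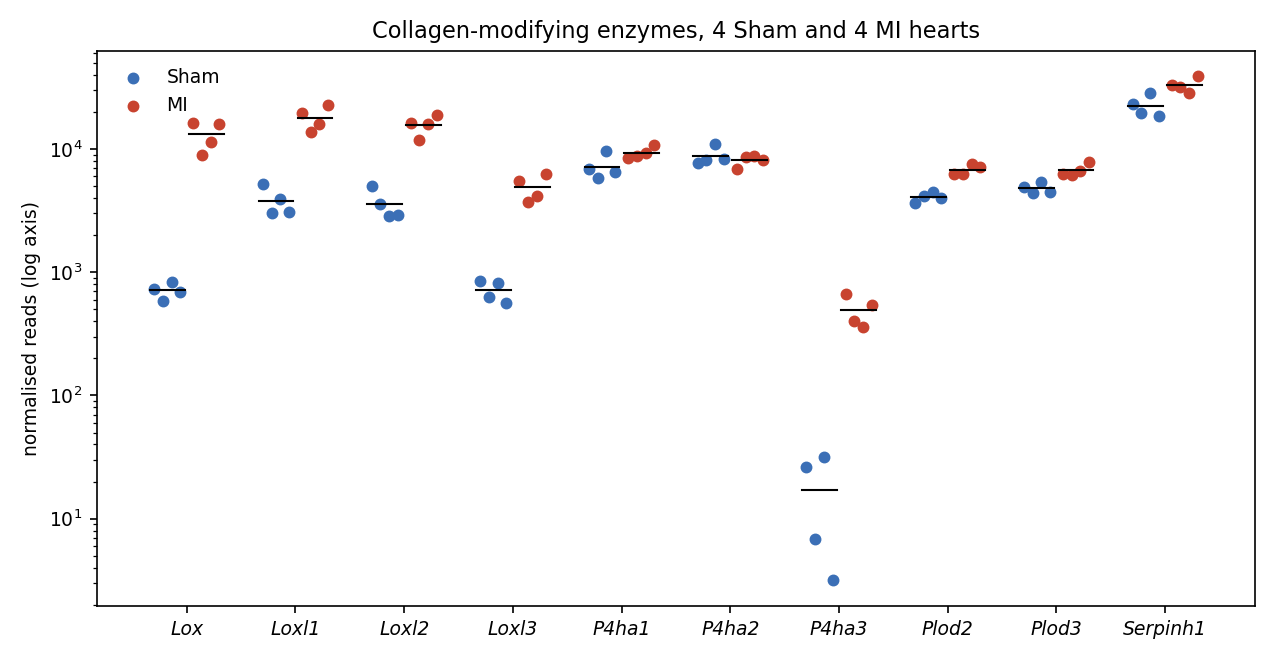
Normalised reads (log axis) of the 10 genes, 1 point per heart, Sham in blue and MI in red, with a line at each group's mean. Lox and P4ha3 show the widest gaps between groups, P4ha1 and P4ha2 overlap, and P4ha3 lies between 3.15 and 31.8 normalised reads in Sham.

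P4ha1 encodes the alpha subunit that is regarded as the main form in most cells. Its locus (mm9 chr10:58786121-58844298, plus strand) held 6923, 5823, 9559 and 6521 normalised reads in Sham replicates 1 to 4 and 8409, 8732, 9219.7 and 10713 in MI replicates 1 to 4. Sham replicate 3 lay above 3 of the 4 MI hearts, and the other Sham hearts lay below all MI hearts. The mean went from 7206 ± 1633 to 9268 ± 1019 (SD, n = 4 each), and the log2 difference was 0.38 ± 0.14 (SE; limma adjusted p = 0.0495; 95% interval 0.07 to 0.69). The call was at the edge of the threshold: it ended in 10 of 19 alternative analyses, with adjusted p between 0.000791 and 0.130, and leaving out any 1 library other than Sham replicate 3 ended it, while without Sham replicate 3 the difference was 0.53.

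P4ha2, whose product forms a second type of the same enzyme, is best known from cartilage, bone and vessel walls. At its locus (chr11:53914477-53945150, plus strand) Sham hearts had 7647, 8107, 11018 and 8239.7 normalised reads and MI hearts had 6879, 8596, 8698 and 8104. The groups overlapped, with Sham replicate 3 the highest heart and MI replicate 1 the lowest. The log2 difference was -0.11 ± 0.12 (SE; limma adjusted p = 0.5003; 95% interval -0.37 to 0.16), a range that holds neither a rise nor a fall of 1.5-fold. Its sign was not stable, since the difference was 0.01 without Sham replicate 3 and 0.20 when libraries were scaled to their total reads.

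P4ha3, the alpha subunit described last and the least abundant in most tissues, was nearly silent in Sham hearts. Its locus (chr7:107434030-107468204, plus strand) had 26.3, 6.83, 31.8 and 3.15 normalised reads in Sham, from 22, 6, 28 and 2 reads, and 671, 402, 362 and 540.1 in MI, from 1012, 488, 439 and 619 reads. Every MI heart lay far above every Sham heart, and within Sham the hearts split into a higher pair, replicates 1 and 3, and a lower pair. The mean went from 17.0 ± 14.2 to 494 ± 141, a fold of 29.0, and the log2 difference was 5.20 ± 0.58 (limma adjusted p = 8.54e-05). This was rank 16 among all 19186 tested loci, counted from the largest rise. The size was less certain than the direction because of the few Sham reads: it ran from 4.65 to 5.64 when each library was left out in turn.

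The 3 alpha subunits, which differed most within a family, are shown with the 250 bases before their transcription start, since 2 of the 3 windows hold the core letters of the hypoxia response element and the other does not. Capitals mark ACGTG or GCGTG on either strand (CACGT or CACGC as printed), and the sequences are RefSeq's, on GRCm38.p6, all on the plus strand: chr10:59323046-59323295 for P4ha1, chr11:54100674-54100923 for P4ha2 and chr7:100285270-100285519 for P4ha3.
P4ha1: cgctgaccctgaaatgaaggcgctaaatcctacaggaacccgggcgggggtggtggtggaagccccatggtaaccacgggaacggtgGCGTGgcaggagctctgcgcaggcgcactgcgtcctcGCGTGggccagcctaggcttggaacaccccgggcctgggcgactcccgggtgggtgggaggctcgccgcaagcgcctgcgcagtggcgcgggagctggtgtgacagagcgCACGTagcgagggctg
P4ha2: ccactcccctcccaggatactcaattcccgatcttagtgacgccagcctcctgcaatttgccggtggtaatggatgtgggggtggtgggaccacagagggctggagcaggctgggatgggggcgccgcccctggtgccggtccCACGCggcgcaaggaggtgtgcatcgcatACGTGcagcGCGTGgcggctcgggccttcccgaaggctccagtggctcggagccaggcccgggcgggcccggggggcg
P4ha3: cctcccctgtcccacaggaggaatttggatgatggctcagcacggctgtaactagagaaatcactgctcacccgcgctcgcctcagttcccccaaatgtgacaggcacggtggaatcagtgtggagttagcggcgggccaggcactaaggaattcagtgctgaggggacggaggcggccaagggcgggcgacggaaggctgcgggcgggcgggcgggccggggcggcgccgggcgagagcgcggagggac
The P4ha1 and P4ha2 windows each hold ACGTG once and GCGTG at 2 places, and P4ha3, the subunit that rose most, holds neither. RefSeq windows were matched for 5 of the 10 genes, the others being Plod3 and Serpinh1. ACGTG was present in 4 of these 5 windows and GCGTG in 3, where 16.6% and 28.2% of all 32851 mouse windows of this length hold them and 6.13% hold both. A match is a run of letters and not a binding site, and its absence from this window says nothing of the factor.

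The lysyl hydroxylases moved by less than 2-fold but with little scatter. Plod2, whose product hydroxylates lysines in the telopeptides at the ends of the chain and so sets the type of crosslink, had 3617, 4146, 4496 and 4030.0 normalised reads in Sham and 6219, 6256, 7512 and 7123 in MI at its locus (chr9:92437290-92503262, plus strand). Every MI heart was above every Sham heart. The mean went from 4072 ± 363 to 6777 ± 644, a fold of 1.66 and a log2 difference of 0.73 ± 0.09 (limma adjusted p = 0.000147). Plod3, whose product also adds glucose to hydroxylysine that carries galactose, had 4916, 4422, 5360.2 and 4457 normalised reads in Sham and 6287, 6175, 6612 and 7795 in MI (chr5:137462892-137472409, plus strand). Its groups did not overlap either, and the log2 difference was 0.49 ± 0.09, a fold of 1.40 (limma adjusted p = 0.00214).

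Serpinh1, the gene of the chaperone HSP47 that binds folded collagen in the endoplasmic reticulum, had the highest level per kilobase of the 10 in either group. Its locus (chr7:106493886-106501624, minus strand) had 22993, 19421, 28484 and 18387 normalised reads in Sham and 33087, 31825, 28604 and 39121 in MI. The groups were separated only narrowly, MI replicate 3 lying just above Sham replicate 3. The mean went from 22321 ± 4558 to 33159 ± 4399.8, a fold of 1.49 and a log2 difference of 0.58 ± 0.14 (limma adjusted p = 0.00706).

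Among the enzymes that act outside the cell, Lox, the founding lysyl oxidase, which acts on both collagen and elastin, had the largest rise. Its locus (chr18:52675506-52689521, minus strand) had 728, 586, 833 and 697 normalised reads in Sham and 16319, 8956, 11498 and 15889 in MI. Every MI heart lay far above every Sham heart, with MI replicate 2 the lowest of the MI hearts. The mean went from 711 ± 102 to 13165 ± 3553, a fold of 18.5, and the log2 difference was 4.18 ± 0.18 (limma adjusted p = 5.36e-07), rank 63 among tested loci.

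Loxl1, known for its part in elastic fibre renewal, had 5226, 3042, 3907 and 3084 normalised reads in Sham and 19545, 13707, 15929.9 and 22839.8 in MI (chr9:58133833-58161260, minus strand). The fold was 4.72 and the log2 difference 2.25 ± 0.19 (limma adjusted p = 1.83e-05). Loxl2, which crosslinks type IV as well as fibrillar collagen, had 5006, 3559.9, 2839 and 2934 in Sham and 16156, 11936, 16045 and 18836 in MI (chr14:70008936-70096486, plus strand). It rose 4.39-fold, with a log2 difference of 2.15 ± 0.18 and the same adjusted p as Loxl1, and neither gene had overlapping groups. Loxl3, a relative of Loxl2 needed for palate and spine development, had 846, 634, 817 and 559.7 normalised reads in Sham and 5485, 3744, 4126 and 6295 in MI (chr6:82984218-83002558, plus strand). It rose 6.88-fold without overlap between groups, with a log2 difference of 2.77 ± 0.18 (limma adjusted p = 4.50e-06). MI replicate 2 was the lowest MI heart for 5 of the 10 genes, namely all 4 lysyl oxidases and Plod3, and MI replicate 4 was the highest for 6 of the 10. Without MI replicate 2 the log2 differences were 4.35 for Lox, 2.37 for Loxl1, 2.28 for Loxl2, 2.89 for Loxl3 and 0.52 for Plod3, and all 5 calls held.

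**Figure D2:**
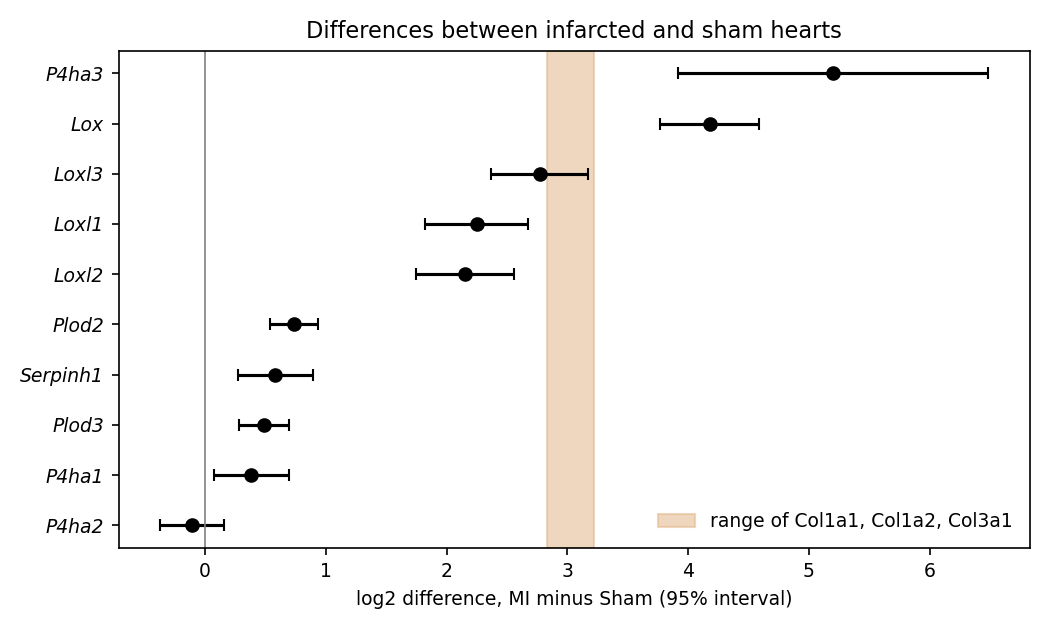
Log2 difference, MI minus Sham, of the 10 genes with 95% intervals from limma, ordered by size, with the range of Col1a1, Col1a2 and Col3a1 shaded. P4ha3 and Lox lie above the shaded range of 2.83 to 3.22, the interval of Loxl3 reaches into it, and the others lie below.

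Because reads per locus grow with length, levels were compared between genes as normalised reads per kilobase of exon. In Sham hearts the order was Serpinh1 at 9629.5 ± 1966 per kilobase, P4ha2 at 1744 ± 305, Plod3 at 1357 ± 125, Plod2 at 1171 ± 104, Loxl1 at 723 ± 194, P4ha1 at 587 ± 133, Loxl2 at 579 ± 162, Loxl3 at 176 ± 34.4, Lox at 141 ± 20.2 and P4ha3 at 5.68 ± 4.72. The ranges over hearts overlapped for the neighbours Plod3 and Plod2, Loxl1 and P4ha1, P4ha1 and Loxl2, and Loxl3 and Lox, whose order is therefore not settled. In MI hearts Serpinh1 still led at 14305 ± 1898 per kilobase, and 3 of the 4 lysyl oxidases came next, with Loxl1 at 3413 ± 762, Lox at 2619 ± 707 and Loxl2 at 2544 ± 460.1. Below them came Plod2 at 1948 ± 185, Plod3 at 1903 ± 210.2, P4ha2 at 1608 ± 166, Loxl3 at 1213 ± 293, P4ha1 at 755 ± 83.0 and P4ha3 at 165 ± 47.0. Neighbours overlapped from Loxl1 down to Plod3 and between P4ha2 and Loxl3, so that within the run of Loxl1, Lox, Loxl2, Plod2 and Plod3 no neighbouring pair was separated. By the order of means Lox went from place 9 to place 3. Several places depend on the length used. With the longest GENCODE transcript as length, Lox went from place 9 to place 4, behind Loxl2 at place 3. The largest shift was that of P4ha1, whose assembled exons span 12.283 kb where its longest GENCODE transcript has 4.043 kb, and which then stood at place 3 in Sham and 6 in MI. With those lengths P4ha2 stood at place 5, Plod3 at 7, Plod2 at 8 and Loxl3 at 9 in MI, while Serpinh1, Loxl1 and P4ha3 kept places 1, 2 and 10 there.

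The make-up of each family by subunit or paralog changed as well. Of the summed per-kilobase reads of the 5 lysyl oxidase genes, with Loxl4 included, Lox made up 6.63, 8.04, 10.4 and 10.2% in Sham and 29.5, 24.4, 25.4 and 25.9% in MI. Its share was higher in every MI heart, while the share of Loxl1 was lower in every MI heart, with a mean of 43.6% ± 3.0 in Sham and 34.6% ± 1.1 in MI. Loxl2 went from 35.1% ± 4.6 to 26.0% ± 2.2 and Loxl3 from 10.8% ± 1.3 to 12.3% ± 0.66, both with overlapping groups, while Loxl4 went from 1.70% ± 0.14 to 0.883% ± 0.063 and was lower in every MI heart. The sum of the family was 1648 ± 372 per kilobase in Sham and 9875 ± 2163 in MI.

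The prolyl 4-hydroxylase alpha subunits kept nearly the same sum, 2336 ± 434 per kilobase in Sham and 2527 ± 171 in MI, and differed in make-up. P4ha2 gave 74.8% ± 2.0 of it in Sham and 63.5% ± 3.7 in MI, lower in every MI heart. P4ha1 gave 25.0% ± 1.9 and 29.8% ± 2.1, higher in every MI heart. P4ha3 gave at most 0.418% of the sum in Sham, and 9.82, 5.24, 4.63 and 6.76% in MI. With GENCODE lengths the P4ha1 share was 38.2% in Sham and 44.6% in MI, the mean gain of P4ha3 was 3.91 percentage points instead of 6.38, and the gain of Lox was 15.0 instead of 17.5, all in the same direction. P4hb, the beta subunit that every alpha subunit pairs with, rose by 0.35 ± 0.08 on the log2 scale (limma adjusted p = 0.00477). For the lysyl hydroxylases the sum of Plod2 and Plod3 was 2527 ± 189 per kilobase in Sham and 3851 ± 351 in MI, and the share of Plod2, 46.3% ± 2.7 and 50.6% ± 2.2, overlapped between groups.

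**Figure D3:**
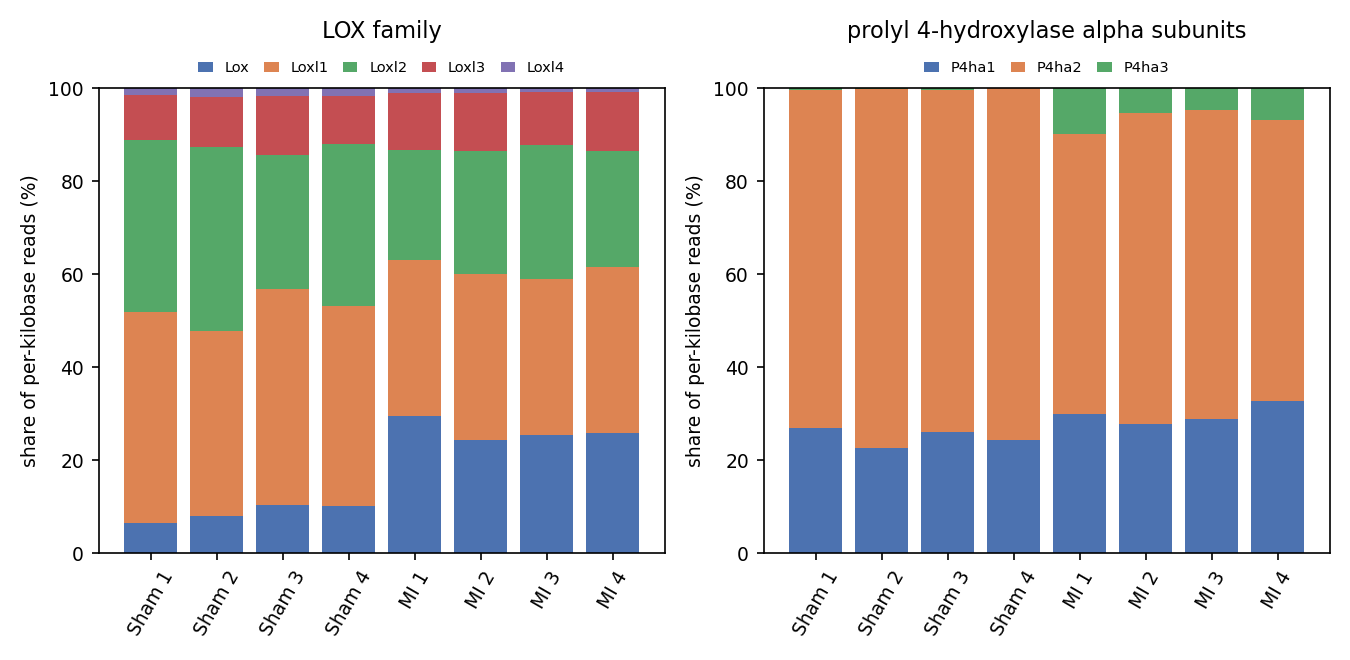
Share (%) of each gene in its family's summed normalised reads per kilobase, 1 bar per heart, for the lysyl oxidases on the left and the prolyl 4-hydroxylase alpha subunits on the right. Lox makes up 24.4 to 29.5% in MI hearts and at most 10.4% in Sham hearts, and a P4ha3 segment is visible only in the MI bars.

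The substrate of these enzymes rose more than most of the enzymes did. Col1a1 and Col1a2, the chains of type I collagen, rose by 3.22 ± 0.26 and 2.83 ± 0.21 on the log2 scale and Col3a1, the chain of type III, by 3.20 ± 0.30. Their summed level was 7629 ± 2540 per kilobase in Sham (SD, n = 4) and 64458 ± 16685 in MI, with Sham replicate 4 the lowest heart at 4417. Each enzyme was therefore set against this sum in the same heart, as reads per kilobase per 1000 of collagen. Lox was at 13.9 to 31.4 per 1000 in Sham and at 35.9 to 45.3 in MI, and P4ha3 at 0.238 to 1.24 in Sham and 2.28 to 2.84 in MI. These 2 were higher in every MI heart, which held for 0.313% of all tested loci.

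The groups overlapped for Loxl3, at 20.03 to 31.3 per 1000 in Sham and 17.2 to 20.2 in MI. The other 7 genes were lower in every MI heart, as were 95.4% of all tested loci, so that this count says little about the enzymes. The fall was smallest for Loxl1, from 81.1 to 132 per 1000 in Sham down to 47.0 to 59.9 in MI, and for Loxl2, from 53.6 to 107 down to 33.1 to 51.4. It was larger for the genes of the endoplasmic reticulum other than P4ha3: Serpinh1 was at 950.3 to 1796 per 1000 in Sham and 181 to 277 in MI. Plod2 was at 99.6 to 262 and 22.7 to 42.8, Plod3 at 133 to 286 and 22.6 to 37.1, P4ha1 at 54.0 to 120.2 and 8.68 to 14.9, and P4ha2 at 146 to 372 and 17.4 to 34.5. The log2 differences relative to collagen were -2.53 for Serpinh1, -2.38 for Plod2, -2.62 for Plod3, -2.73 for P4ha1 and -3.22 for P4ha2. The median over all tested loci was -3.13, and of these genes only P4ha2 fell by more. The ratio shifts every locus by the same amount, so this restates the plain P4ha2 difference of -0.11 beside a median of -0.02. That plain difference was not called and its sign was not stable. The limma fit on these ratios called the same 2 genes higher and 7 lower, beside 0.339% and 97.7% of tested loci, and since all loci in it share the error of the collagen sum, its p-values are too small and are not given.

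**Figure D4:**
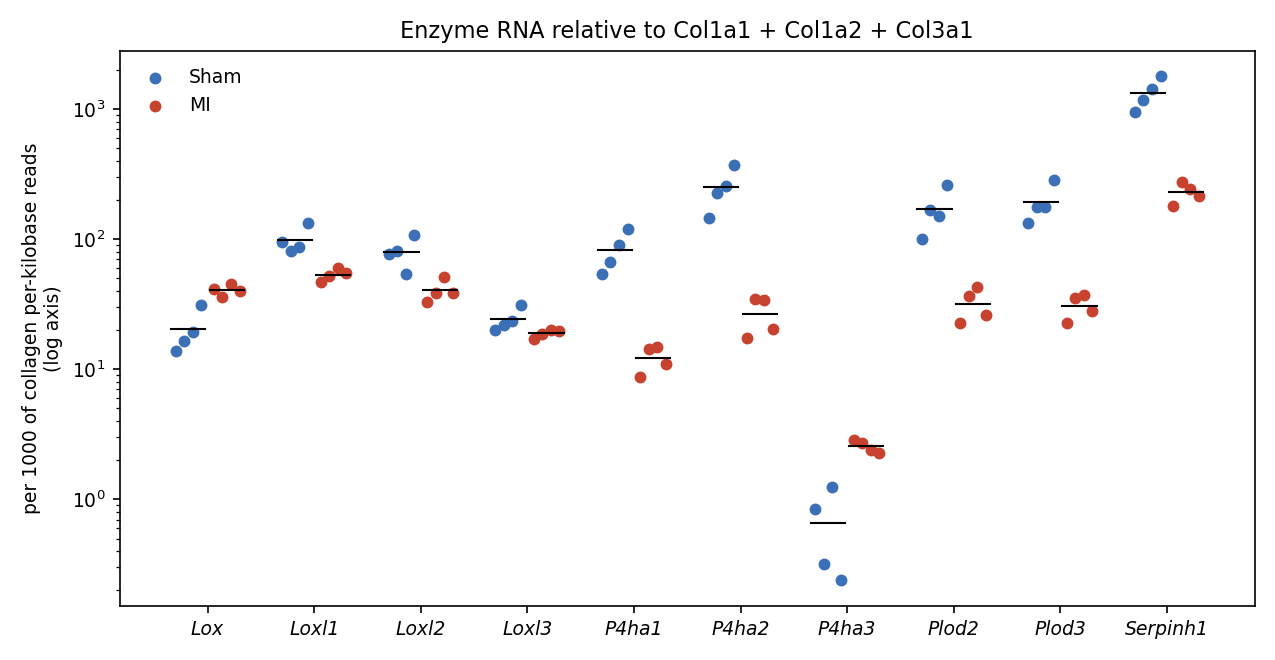
Normalised reads per kilobase of each gene per 1000 of the summed Col1a1, Col1a2 and Col3a1 reads per kilobase (log axis), 1 point per heart with a line at each mean. Lox and P4ha3 are higher in MI, Loxl3 overlaps, and the other 7 are lower in every MI heart.

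Other genes of the pathway were taken as lists named by function. Of 13 tested genes for collagen modification, folding and export in the endoplasmic reticulum, 10 rose and 2 fell, with a median log2 difference of 0.47, where 20.8% of all tested loci rose and 20.1% fell with a median of -0.02. P3h2, a prolyl 3-hydroxylase, rose by 0.93 ± 0.16, Creb3l1, a transcription factor for collagen secretion, by 0.91 ± 0.18, and Fkbp10, a prolyl isomerase that acts with the lysyl hydroxylases, by 0.62 ± 0.09. P3h4, a partner of lysyl hydroxylase 1, fell by 0.51 ± 0.08, and Tmem38b, an ion channel of that compartment, fell by 0.33 ± 0.08, a call that ended when libraries were scaled to their totals. Plod1, the third lysyl hydroxylase gene, shared its assembled locus with another gene, as did P3h3, and these were not analysed here. Mia3 had no matched locus.

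Of 11 tested genes for procollagen trimming and other crosslinking outside the cell, 8 rose and 1 fell, with a median of 0.68, beside the same 20.8% and 20.1% of all tested loci. Adamts2, which removes the amino-terminal propeptide, rose by 2.09 ± 0.13, Tll1, a relative of the carboxy-terminal protease Bmp1, by 1.66 ± 0.27, and Loxl4, the remaining lysyl oxidase, by 1.63 ± 0.16 to a mean of 469 normalised reads in MI. Tll2, another Bmp1 relative, fell by 1.37 ± 0.23. Among 12 fibril-forming collagens and elastin, 11 rose and 0 fell, beside those shares, with a median of 3.14. The largest differences were those of Col2a1 and Col11a1, known from cartilage, and Col24a1. Col11a1 went from a mean of 12.6 to 1146 normalised reads and Col24a1 from 14.1 to 328. Col2a1 had a Sham mean of 2.32, which is under the value of 3 reads in every Sham library, and an MI mean of 312, so no fold is given. Col2a1 passed the filter on low values only through its MI hearts.

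The remaining lists hold genes tied to oxygen and to cofactor supply, and their RNA is not a measure of either. Of 7 other oxygen-dependent hydroxylases 0 rose and 4 fell, where 20.1% of all tested loci fell, with a median of -0.26: Egln1 and Hif1an, which mark the hypoxia-inducible factor in the presence of oxygen, fell by 0.66 ± 0.08 and 0.41 ± 0.10, and P4htm, a membrane-bound relative, fell by 0.39 ± 0.09. Scaling to total reads left 1 of these falls and called 1 gene of the list higher. Of 11 hypoxia-inducible genes outside collagen modification, 2 rose and 1 fell, with a median of 0.07, counts no higher than the shares of all tested loci, 20.8% and 20.1%, would give. Car9, a carbonic anhydrase, rose by 1.28 ± 0.19. Pfkfb3, a regulator of glycolysis, rose by 0.35 ± 0.12 (limma adjusted p = 0.0413), a call that ended without Sham replicate 1, 3 or 4 or MI replicate 2 or 3. Pdk1, whose product is a kinase that inhibits pyruvate dehydrogenase, fell by 0.30 ± 0.07. Under total scaling its difference was 0.01, and 7 genes of the list were called higher and 0 lower. For copper and ascorbate, the cofactors of the lysyl oxidases and hydroxylases, 1 of 6 tested genes rose and 0 fell, a share of rises below the 20.8% of all tested loci, with a median of 0.23: the ascorbate transporter Slc23a2 rose by 0.33 ± 0.07. That count was 2 without Sham replicate 1 or without Sham replicate 3.

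**Figure D5:**
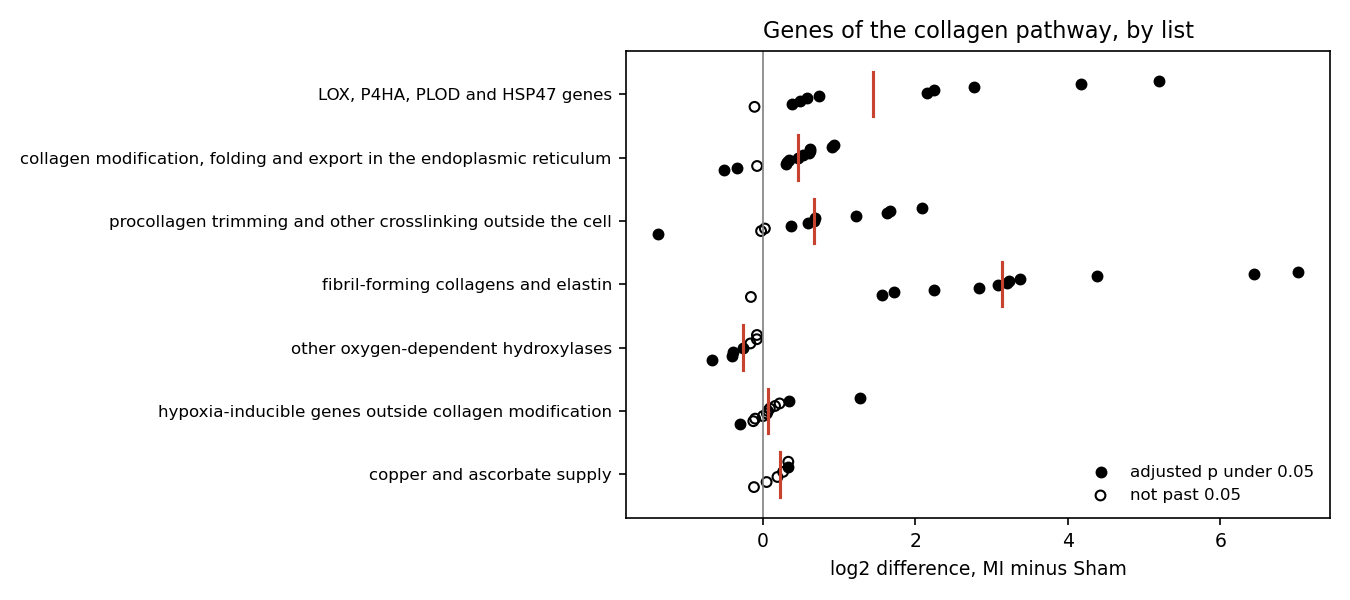
Log2 difference, MI minus Sham, of each tested gene by list, filled where limma's adjusted p was under 0.05 and open where not, with a red line at the list's median. The collagen list lies furthest to the right with a median of 3.14, the 10 enzyme genes spread from -0.11 to 5.20, and the lists of other hydroxylases and hypoxia-inducible genes have medians of -0.26 and 0.07.

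Several other cell types moved with the infarct, and their part in the enzyme results was not tested. All sums that follow are in units of 1000 normalised reads. The counts of called genes stand beside 20.8% of all tested loci called higher and 20.1% called lower. Myofibroblast markers summed to 14.8 to 24.1 in Sham and 89.5 to 144 in MI, with 5 of 5 genes called higher. Fibroblast markers summed to 229 to 254 and 277 to 342, with 6 of 8 higher and 1 lower. Macrophage markers summed to 12.9 to 16.1 and 17.6 to 21.6, with 4 of 5 tested higher, and neutrophil markers to 0.287 to 0.616 and 0.855 to 3.04, with 3 of 4 higher. T cell markers summed to 0.0171 to 0.0520 in Sham and 0.0782 to 0.151 in MI, with 4 of 4 higher. B cell markers summed to 0.121 to 0.235 and 0.170 to 0.541, so that their sums overlapped between groups, with 3 of 3 called higher. Epicardial markers summed to 1.23 to 2.02 and 2.11 to 5.49, a narrow separation, with 3 of 4 higher. Of the called genes, Upk3b and Msln had an MI SD above their mean, at 536 ± 874 and 449 ± 599 normalised reads. The other called gene was Tbx18, and Wt1 was not called. Cardiomyocyte markers, given above, fell for 5 of 6 genes. Endothelial markers summed to 112 to 151 and 122 to 145 with 0 of 6 called. Smooth muscle markers summed to 33.1 to 38.5 and 30.3 to 37.0, with 2 of 5 higher and 1 lower. Pericyte markers summed to 182 to 207 and 149 to 173, with 1 of 5 higher and 1 lower. The lower gene was Abcc9, with means of 75056 normalised reads in Sham and 37969 in MI, and the higher was Cspg4. Rgs5, the pericyte marker with the most reads, was not called, at 98820 and 91160. No marker was at 0 in any library. MI replicate 2, the lowest MI heart for the lysyl oxidases, also had the lowest MI sum of myofibroblast markers, 89.5 beside 132 to 144. Its cardiomyocyte sum was the highest in MI, 4921 beside 3864 to 4522. Its fibroblast sum, 277, was the lowest in MI by little, as the next was 278. It also had the lowest MI sums of macrophage, T cell and B cell markers and the highest of neutrophil markers, 3.04 beside 0.855 to 1.41.

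Loci on the opposite strand overlapped 6 of the 10 genes, and whether reads were counted by strand is not given in the sources used here. Htra2, which overlaps Loxl3, went from 2063 ± 117 to 1877 ± 178 normalised reads and Znhit1, which overlaps Plod3, from 2413 ± 339 to 2143 ± 169.5, and neither passed the test (limma adjusted p = 0.221 and 0.242). Gm27177, in the span of Loxl2, was at 211 ± 15.5 and 217 ± 52.0. The loci that overlap Plod2 and Serpinh1 have no name here and held at most 243 and 0 normalised reads in a library.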

How the data were processed

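Border-zone RNA of 8 hearts, 4 Sham and 4 MI, was extracted with Trizol, poly(A)-selected and sequenced on an Illumina HiSeq2000, per the labels' protocols. The submitters' processing notes name HTSeq 0.5.4p2, DESeq, TopHat2 2.0.5 and Cufflinks 2.0.2 with mm9. Roles, settings and strandedness are not given there. The deposited signal is normalised reads per locus. In each library 100% of values were whole multiples of the value of 1 read (tolerance 1e-06), so reads could be rebuilt. On these edgeR's quasi-likelihood test called 4288 loci higher and 3649 lower, and DESeq2 4331 and 4116.

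The deposited annotation carries no gene symbols. Loci were named by intron and exon lengths shared with GENCODE, whose coordinates, being on GRCm38, were not used. This named 19739 of 20485 multi-exon annotated loci (96.4%). Loci holding more than 1 gene were dropped and unmatched genes left out, which kept 126 of 135 listed genes. No libraries of a group were duplicates (chi-square per degree of freedom 31.2 to 133).

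Loci with a mean of at least 10 normalised reads (19186) were tested with limma-trend (limma 3.58.1, R 4.3.3) on log2(normalised reads + 1) over 8 libraries, MI against Sham, with Benjamini-Hochberg adjustment over all of them and a threshold of 0.05. Fold changes are of group means. The 1 added before the log shrinks log2 differences of low genes. These are differences of mean logs, so they need not equal the log2 of the fold. P4ha3, for example, had a log2 difference of 5.20 beside a fold of 29.0. edgeR 4.0.16 and DESeq2 1.42.0 served as alternatives, beside another pseudocount, filters, scalings, a robust fit, a replicate block and leaving out each library. The fit was tested on simulated data. A count of 0 allows up to 3 reads, 1.99 to 4.73 normalised reads, counting error only.

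The genes and lists were chosen with earlier results of these data known. Genes named are the 10 enzymes, 3 collagens, and from each list the 3 called genes with the largest absolute log2 difference plus called genes that moved against the list's majority. P4hb, the named markers of pericytes, T cells and epicardium, and the loci overlapping the enzymes were named after their values were seen.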

Additional observations from a re-analysis of the deposited data

How the results depend on the processing

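Of the 10 enzymes, 8 were called higher under all 19 alternatives, and between 8 and 9 were called when each library was left out in turn. P4ha1 was the call that ended, and P4ha2, not called, changed sign to 0.0074 without Sham replicate 3 (from -0.17 to that value over the libraries left out), 0.20 with total scaling and 0.083 with total scaling outside the mitochondrial chromosome. Over 32 single genes, 581 of 608 values kept their direction and side of the threshold, 23 fell short of it and 4 reversed, the last of them Pdk1 at 0.011 with total scaling. Total scaling shifted the median of all loci by 0.30 on the log2 scale and gave 8525 higher and 1498 lower calls (85.1% higher, against 50.9% as deposited), and outside the mitochondrial chromosome, an alternative chosen after seeing the data like that of GENCODE lengths, the shift was 0.19 with 6368 and 2145 calls (74.8% higher). With these 2 scalings the endoplasmic reticulum list had 1 gene lower under either, other hydroxylases 1 lower under either and 1 higher under total scaling, hypoxia-inducible genes 7 and 6 higher and 0 lower, and the copper and ascorbate list 4 higher under either. Upper-quartile scaling left 1 hypoxia-inducible gene higher and DESeq2 gave 2 higher for copper and ascorbate. When each library was left out in turn, both of these lists had 1 to 2 genes higher. The causes were not tested. Whether replicate numbers pair the libraries was not settled. Same-numbered deviations correlated at -0.0009 to 0.27 and others at -0.39 to 0.28, and not every library correlated best with its own number. A replicate block gave 4152 higher and 4056 lower calls, 9 enzymes higher and a limma adjusted p of 0.033 for P4ha1. Depth limits genes with few Sham reads, among them P4ha3 at 2 to 28 reads, Col2a1 and the T cell markers.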

Other observations

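A spliced locus on the strand opposite Lox, matched to AC161119.1 and overlapping the Lox locus by 1207 bases, held 0 reads in all 4 Sham libraries and 26, 8, 16 and 17 reads in MI replicates 1 to 4, or 17.2, 6.59, 13.2 and 14.8 normalised reads. It was chosen after its values were seen and was not tested, since its mean was under 10 normalised reads. Each 0 leaves room for 3 reads, which are worth 3.41 to 4.73 normalised reads in the Sham libraries. The MI mean was 0.0984% of that of Lox, the strand of counting is not given, and reads of either locus could not be told apart.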
